A study of Mus musculus with 30 samples.

Results

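The integrated stress response and its transcription factor ATF4 were followed through 10 genes: the factors Atf4 and Ddit3, the feedback inhibitors Trib3 and Ppp1r15a, the glutathione-degrading enzyme Chac1, the amino acid enzymes Asns, Psat1 and Phgdh, and the mTORC1 inhibitors Sesn2 and Ddit4. A gene belonged to the group when the name column of a deposited table held its symbol, which gave 11 of 55573 rows in each table. Ddit3 had 2 rows, of which the second, an overlapping entry, held 0 reads in every library, so 10 rows were analysed and the level of Ddit3 depends on how reads in the overlap were assigned. The members lie on chromosome 2 (Chac1 and Trib3), 3 (Phgdh), 4 (Sesn2), 6 (Asns), 7 (Ppp1r15a), 10 (Ddit3 and Ddit4), 15 (Atf4) and 19 (Psat1). The group was selected on measured values of these libraries, namely a higher normalized count of Chac1 in Mertk-/-V2 than in wild type macrophages, together with the known roles of the genes. That contrast is therefore given as a description, with no test, for all 10 members.

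The integrated stress response begins when a kinase that senses unfolded protein, amino acid shortage, haem shortage or viral RNA phosphorylates the initiation factor eIF2. Bulk translation then falls while the mRNA of ATF4 is translated more, and ATF4 turns on genes for amino acid synthesis and import, for redox balance and for the shut-off of the response itself. Much of the control of ATF4 is translational, so the level of Atf4 mRNA need not follow the activity of the protein. Macrophages and the retinal pigment epithelium (RPE) both take up and digest membrane of other cells, dying cells in the case of macrophages and shed photoreceptor tips in the case of the RPE, and MERTK is a receptor tyrosine kinase that serves this uptake.

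The libraries came from C57BL/6J wild type mice (B6 WT) and from 3 independently made lines that lack Mertk. Mertk-/-V1 carries a neomycin cassette and lacks exon 17; it was made in embryonic stem cells of the 129P2 strain, backcrossed to C57BL/6J, and keeps a 129P2-derived stretch of chromosome 2. Mertk-/-V2 lacks exon 18, removed in the germline from a floxed allele by a Cre that was bred out afterwards, and Mertk-/-V3 lacks exons 3 and 4, removed by CRISPR/Cas9; both were made from C57BL/6NJ, in embryos and in eggs respectively, and the labels give C57BL/6J as the strain. Bone marrow-derived macrophages (BMDMs) were grown for 7 days from adult marrow in medium conditioned by L929 cells (3 libraries per genotype), and RPE was released with RNAprotect from the posterior eyecup at postnatal day 25 (6 libraries each for B6 WT and Mertk-/-V1, 3 each for Mertk-/-V2 and Mertk-/-V3). The replicates are labelled as biological.

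Across libraries, 16629659 to 25653814 reads lay on genes in BMDMs and 14137666 to 34124049 in RPE. Values are normalized counts, that is, reads divided by the size factor of the library. The count of Mertk was 865 ± 18.05 (SD, n = 3) in Mertk-/-V1 and 687 ± 36.1 in Mertk-/-V3 BMDMs against 2648 ± 233 in B6 WT, and 3567 ± 30.7 in Mertk-/-V2, whose missing exon a count over the whole gene does not check. All 8 macrophage markers were detected in every BMDM library, while the RPE markers Rpe65, Ttr, Lrat and Tyrp1 and the rod marker Prph2 were at 0 in all of them. In RPE all 9 RPE markers were detected, but so were all 8 rod markers, and their summed level moved with the library. It ran from 30442 to 327003 in B6 WT, 58222 to 825677 in Mertk-/-V1, 129605 to 219069.7 in Mertk-/-V2 and 52154 to 389404 in Mertk-/-V3. The summed RPE markers ran over the same groups from 533681 to 883829, 212492 to 655328, 659345 to 867571 and 297553 to 814988. In 3 RPE libraries, Mertk-/-V1 replicates 5 and 6 and Mertk-/-V3 replicate 1, the rod sum exceeded the RPE sum. Values without these libraries stand beside the differences of members that they moved. All 8 macrophage markers were also detected in every RPE library, with sums of 5452 to 12727, as were all 6 erythroid markers. The erythroid sum ran from 7703 to 54372 in B6 WT, 7350.1 to 79721 in Mertk-/-V1, 30440.5 to 63527 in Mertk-/-V2 and 4317 to 8052 in Mertk-/-V3.

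ATF4 binds, with a C/EBP partner, a composite element whose core reads TGATGNAA. The promoters of all 10 members, taken from 250 bases before to 50 bases after the transcript start in RefSeq (GRCm38.p6; 11 windows, as Psat1 has 2 starts), were searched for this core on both strands. It was found in 3 members, Asns, Chac1 and Trib3, and in 3.97% of all 32851 promoters of the same length. Their windows are shown, on the strand of the gene and with the match in capitals, because they hold the core. In Asns the match began 23 bases before the start, in Chac1 it lay on the opposite strand and began 193 bases before the start, and in Trib3 it lay on the opposite strand, 14 bases after the start.
Asns, chr6:7693160-7693459, minus strand: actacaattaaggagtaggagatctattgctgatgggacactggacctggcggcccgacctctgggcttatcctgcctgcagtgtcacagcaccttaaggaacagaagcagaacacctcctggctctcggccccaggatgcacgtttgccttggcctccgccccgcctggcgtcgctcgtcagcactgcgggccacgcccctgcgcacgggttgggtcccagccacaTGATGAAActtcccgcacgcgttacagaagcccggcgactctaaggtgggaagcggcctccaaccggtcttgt
Chac1, chr2:119350992-119351291, plus strand: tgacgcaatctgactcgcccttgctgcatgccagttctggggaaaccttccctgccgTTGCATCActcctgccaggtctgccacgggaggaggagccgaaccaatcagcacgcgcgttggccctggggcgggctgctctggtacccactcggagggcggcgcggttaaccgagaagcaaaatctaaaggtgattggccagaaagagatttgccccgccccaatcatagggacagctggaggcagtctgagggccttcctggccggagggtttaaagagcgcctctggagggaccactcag
Trib3, chr2:152344011-152344310, minus strand: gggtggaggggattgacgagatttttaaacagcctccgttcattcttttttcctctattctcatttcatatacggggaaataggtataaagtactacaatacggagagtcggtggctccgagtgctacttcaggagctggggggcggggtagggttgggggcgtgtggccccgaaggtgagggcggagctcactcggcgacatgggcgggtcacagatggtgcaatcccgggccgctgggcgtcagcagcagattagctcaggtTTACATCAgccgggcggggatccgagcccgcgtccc

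A cyclic AMP response element with the letters TGACGTCA was found in 1 member, Ppp1r15a, and in 1.79% of all promoters. The endoplasmic reticulum stress element ERSE-I was found in 0 of the 10 members and in 0.119% of all promoters. Both were searched on either strand, and since Ppp1r15a did not hold the core, no matches overlapped among the members. A match describes the letters of the window and is not evidence that a factor bound there.

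In wild type tissue the members differed in level by a wide range and stood in another order in each tissue. Levels between genes are given per length, as RPKM (reads scaled to exon length and to the reads on genes of the library; mean ± SD). In B6 WT BMDMs (n = 3) Atf4 led with 109 ± 4.00, followed by the serine pathway aminotransferase Psat1 with 27.8 ± 0.523, asparagine synthetase (Asns) with 22.1 ± 0.208 and the first enzyme of serine synthesis, Phgdh, with 21.9 ± 2.18. Asns and Phgdh overlapped; every other neighbour in the order was apart in all 3 libraries. The leucine sensor Sesn2 had 12.6 ± 0.234, the phosphatase subunit Ppp1r15a (GADD34) 10.7 ± 1.13 and Ddit3, which encodes the transcription factor CHOP, 6.06 ± 0.710. The pseudokinase Trib3 had 3.58 ± 0.475, the mTORC1 inhibitor Ddit4 2.15 ± 0.357, and Chac1, an enzyme that breaks down glutathione, was the lowest at 1.26 ± 0.339.

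In B6 WT RPE (n = 6) Phgdh led with 112 ± 17.1 RPKM, ahead of Atf4 with 52.3 ± 3.19 and Ddit4 with 32.6 ± 3.44. Psat1 (21.8 ± 3.49), Chac1 (15.2 ± 5.69) and Ppp1r15a (12.3 ± 0.798) followed, each overlapping the next. Below them came Ddit3 with 7.87 ± 0.897, Sesn2 with 4.84 ± 0.300, Asns with 2.25 ± 1.32 and Trib3 with 1.02 ± 0.145; Sesn2 overlapped Asns, and Asns overlapped Trib3. Set beside each other, the means were 15.1 times higher in RPE for Ddit4, 12.03 times for Chac1 and 5.13 times for Phgdh. They were 9.81 times higher in BMDMs for Asns, 3.52 times for Trib3, 2.60 times for Sesn2 and 2.08 times for Atf4. The tables of the tissues were normalized separately and the tissues differ in how they were obtained, so these ratios were not tested.

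**Figure D1:**
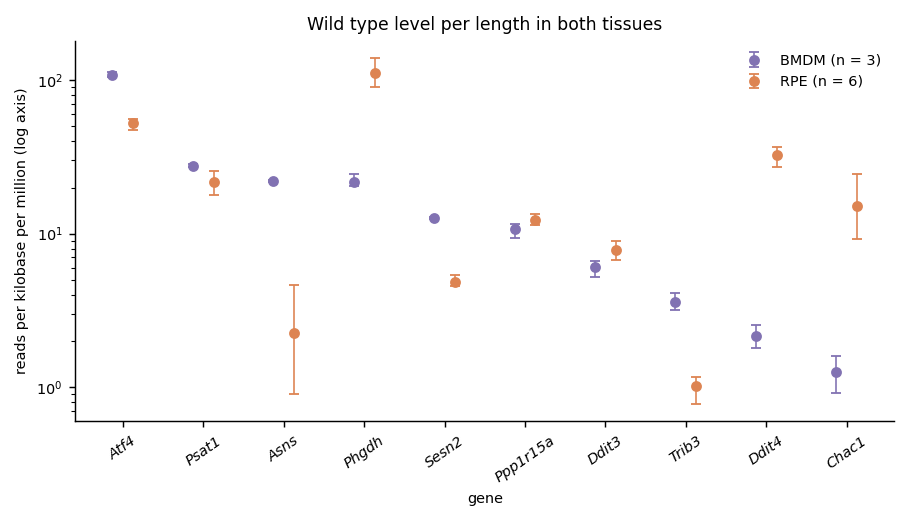
Wild type level of the 10 genes, in RPKM on a log axis, with the BMDM mean (n = 3) and the RPE mean (n = 6) as points and the lowest and highest library as bars. Chac1 and Ddit4 stand at the bottom of the BMDM order and are 12.03 and 15.1 times higher in RPE.

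In BMDMs, Chac1, Trib3 and the amino acid enzymes Asns, Phgdh and Psat1 had higher values in every Mertk-/-V2 library than in any B6 WT library, while the transcription factor genes Atf4 and Ddit3 overlapped. This is the contrast on which the group was chosen, so the values are a description. Chac1 had normalized counts of 53.4, 30.2 and 43.0 in the 3 B6 WT libraries and of 64.3, 117 and 123 in the 3 Mertk-/-V2 libraries. All Mertk-/-V2 libraries lay above all B6 WT libraries, and the log2 difference was 1.23. The spread was wide: Mertk-/-V2 replicate 1 was nearer to the highest B6 WT library than to the other Mertk-/-V2 libraries, and leaving out each library in turn moved the difference between 1.01 and 1.53.

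Trib3, which binds and restrains ATF4 and AKT, had 139, 146 and 181 in B6 WT and 346, 328 and 267 in Mertk-/-V2, a log2 difference of 1.01. Asns had 1247, 1201 and 1251 against 1468, 1652 and 1637, a log2 difference of 0.36. Neither gene overlapped between the groups. Phgdh had 1238, 1017 and 1071 in B6 WT and 1285, 1375 and 1369.8 in Mertk-/-V2 (0.28), and Psat1 had 2461, 2378 and 2399 and 2549, 2627 and 2761 (0.13). The enzymes of serine synthesis were thus also apart, by smaller amounts.

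Sesn2, which restrains mTORC1 when leucine is short, had 880.5, 874 and 924 in B6 WT and 923, 987 and 1035 in Mertk-/-V2 (0.14), and the groups overlapped. Atf4 itself had 5450.5, 5130.2 and 5129 against 5128, 5637 and 5899 (0.08), and the groups overlapped. Ddit3 (0.06) and Ppp1r15a (below 0.01 in size) overlapped B6 WT. Ddit4 was the exception in direction, with 64.9, 88.8 and 77.2 in B6 WT and 72.8, 62.5 and 36.1 in Mertk-/-V2 (-0.47), and its groups overlapped. In all, 9 of 10 members had a difference above 0, with a median of 0.13 beside -0.00096 over all 13420 genes tested. The groups did not overlap for 5 members, all higher in Mertk-/-V2, where 22.7% of all genes did not overlap in either direction; since the contrast helped to choose the members, nothing is read from that count.

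**Figure D2:**
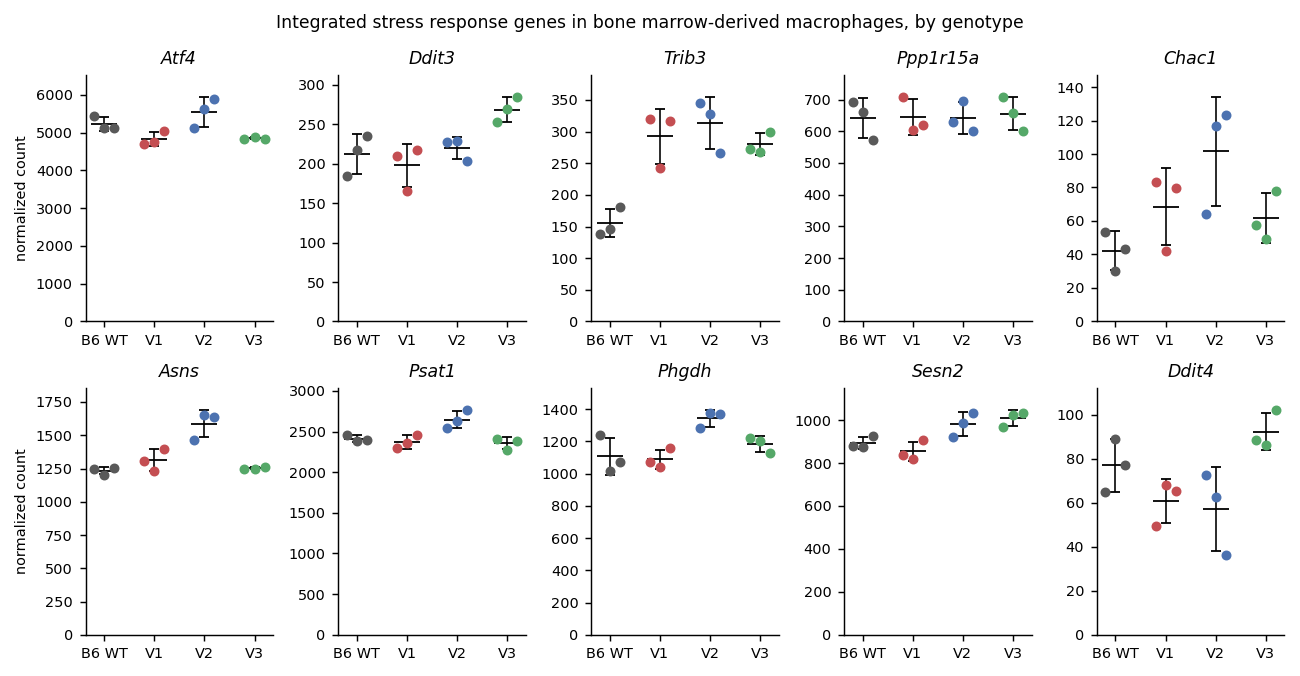
Normalized counts of the 10 genes in every BMDM library (points; 3 per genotype), with the mean of each genotype as a horizontal line and its SD as whiskers, each axis starting at 0. Trib3 lies between 139 and 181 in B6 WT and at 242 or above in all 9 knockout libraries, while Chac1 is highest in Mertk-/-V2 and overlaps B6 WT in Mertk-/-V1 and Mertk-/-V3.

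Trib3 lay above B6 WT in all 9 knockout BMDM libraries, and it was the member that passed the test in Mertk-/-V1 and in Mertk-/-V3. Mertk-/-V1 BMDMs had 319, 242 and 316 and Mertk-/-V3 BMDMs 272, 268 and 299.7, beside the 139, 146 and 181 of B6 WT. The lowest knockout library, Mertk-/-V1 replicate 2, lay above the highest B6 WT library. On the scale of log2(normalized count + 1), Trib3 was higher by 0.91 (SE 0.14) in Mertk-/-V1 (limma, adjusted p = 0.00172) and by 0.85 (SE 0.14) in Mertk-/-V3 (adjusted p = 0.00979), or 1.88-fold and 1.81-fold. The call in Mertk-/-V3 depended on single libraries. It was lost on leaving out replicate 1 of B6 WT (0.78, adjusted p = 0.0616), its replicate 2 (0.81, adjusted p = 0.0573) or replicate 3 of the knockout line (0.80, adjusted p = 0.0512). All 3 comparisons share the same 3 B6 WT libraries, so they are not independent of each other or of the contrast used for the choice.

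Chac1, given here without a test, had 83.4, 42.0 and 79.9 in Mertk-/-V1 and 57.9, 49.0 and 77.9 in Mertk-/-V3, 0.66 and 0.55 above B6 WT on the log2 scale, and both groups overlapped B6 WT. The amino acid enzymes did not follow Trib3 in these lines. Asns had 1307, 1234 and 1399 in Mertk-/-V1 and 1246, 1249 and 1259.8 in Mertk-/-V3, Phgdh 1069.9, 1039.8 and 1157 and 1224, 1205 and 1128, and Psat1 2299, 2358 and 2463 and 2413, 2277 and 2388. Each of these groups overlapped B6 WT. Atf4 was 4713, 4753 and 5051 in Mertk-/-V1 and 4841, 4899.5 and 4843 in Mertk-/-V3, below every B6 WT library in both lines, but the difference of -0.11 in Mertk-/-V1 did not pass the test (adjusted p = 0.192).

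For the 9 members that could be tested, 1 was called in Mertk-/-V1 against B6 WT, where 7.07% of all genes were called, and 1 in Mertk-/-V3 against B6 WT, where 1.17% were; 1 gene in 9 is no result about the group. The groups did not overlap for 2 of 10 members in Mertk-/-V1, Trib3 above and Atf4 below, beside 30.9% of all genes. In Mertk-/-V3 they did not overlap for 4 of 10, with Trib3, Ddit3 and Sesn2 above and Atf4 below, beside 25.4% of all genes. Ddit3 had 252, 269 and 284 in Mertk-/-V3 and 184, 217 and 234 in B6 WT, a difference of 0.35 (adjusted p = 0.177). Sesn2 had 967, 1026 and 1035 in Mertk-/-V3, a difference of 0.18 (adjusted p = 0.157). Neither passed. With the log2 fold threshold that the study used beside its adjusted p, 0 members were called in any tested comparison.

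**Figure D3:**
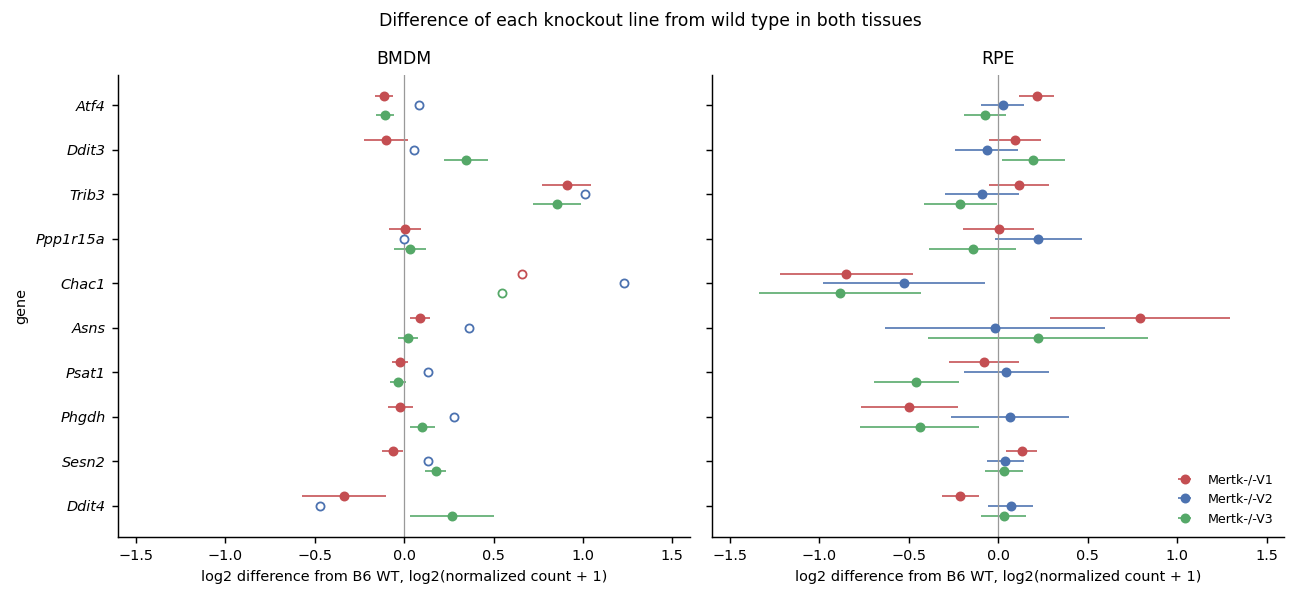
Log2 difference of each knockout line from B6 WT for the 10 genes, in BMDMs (left) and RPE (right); bars are standard errors from the limma fit and open points are values with no test. Trib3 sits between 0.85 and 1.01 in BMDMs of all 3 lines and between -0.21 and 0.12 in RPE, and Chac1 is above 0 in BMDMs and below 0 in RPE.

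The comparison of Mertk-/-V1 with Mertk-/-V3 BMDMs is a difference between their own libraries, while its standard errors came from the spread over all 12 BMDM libraries. The mTORC1 inhibitors Sesn2 and Ddit4 and the CHOP gene Ddit3 had lower values in every Mertk-/-V1 library than in any Mertk-/-V3 library, and Sesn2 alone passed the test. Sesn2 had 839, 819 and 905 in Mertk-/-V1 and 967, 1026 and 1035 in Mertk-/-V3, a log2 difference of -0.24 (SE 0.06, adjusted p = 0.0398). With only these lines fitted the adjusted p was 0.0174. The call was lost when low genes were not filtered (adjusted p = 0.0711) and when any library but Mertk-/-V1 replicate 3 was left out (adjusted p = 0.0746 to 0.153). Ddit3 had 210.2, 166 and 217 against 252, 269 and 284, a difference of -0.45 (SE 0.12, adjusted p = 0.0624; DESeq2, adjusted p = 0.0286; limma with only these lines fitted, adjusted p = 0.0288). Ddit4, which like Sesn2 restrains mTORC1, had 49.3, 68.0 and 65.2 against 88.5, 86.3 and 102, a difference of -0.60 (SE 0.23, adjusted p = 0.178). Of the 10 members 1 was called, beside 3.05% of all genes, and 3 did not overlap, beside 29.6%. Ddit4 also answers to glucocorticoids and hypoxia. Of 6 other glucocorticoid-responsive and 7 hypoxia-responsive genes tested, 0 were called in this comparison by limma, edgeR or DESeq2, with 2 and 3 at an unadjusted p under 0.05. In Mertk-/-V1 against B6 WT limma called 3 of the 6 (2 higher, 1 lower) and 2 of the 7 (1 higher, 1 lower), beside 7.07% of all genes. The part of either signal in the values of Ddit4 was not tested. Trib3 (319, 242 and 316 against 272, 268 and 299.7) and Chac1 overlapped between the lines.

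The rest of the pathway was read from 8 fixed lists of 60 genes (eIF2 kinases, eIF2 and eIF2B subunits, other factors, serine and one-carbon enzymes, other amino acid enzymes, amino acid transporters, cytosolic aminoacyl-tRNA synthetases, and secreted or apoptotic targets), of which 55 were tested in BMDMs. In Mertk-/-V1 against B6 WT, 1 rose and 1 fell, where 7.07% of all genes were called. The repressor Atf3 rose from 2054 to 2683 (log2 difference 0.38, adjusted p = 0.000931), and Cebpg, which encodes a C/EBP partner of ATF4, fell from 1047 to 855 (-0.29, adjusted p = 0.00913). Atf3 was also higher in Mertk-/-V1 than in Mertk-/-V3 (0.28, adjusted p = 0.0104). In Mertk-/-V3 against B6 WT 0 of 55 were called by limma, with 5 at an unadjusted p under 0.05 and 1 called by edgeR and 1 by DESeq2. The median difference over the tested genes of these lists was -0.03 in Mertk-/-V1 and -0.01 in Mertk-/-V3, beside -0.0047 and 0.0048 over all genes.

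In Mertk-/-V2 most amino acid transporters of these lists had higher values than in B6 WT, again as a description. The groups did not overlap for 16 of the 55 genes with Mertk-/-V2 higher and for 3 with it lower, beside 10.1% of all genes higher and 12.7% lower. They included 6 of the 7 tested amino acid transporters and 5 of 12 cytosolic aminoacyl-tRNA synthetases, all higher. The following genes were chosen after their values were seen. The cystine importer Slc7a11 had 38.1 ± 12.4 against 15.1 ± 6.14 in B6 WT, the leucine importer Slc7a5 2591 ± 244 against 1687 ± 129, the serine and alanine carrier Slc1a4 248 ± 17.96 against 180.1 ± 9.92, and the mitochondrial one-carbon enzyme Aldh1l2 111 ± 27.7 against 65.0 ± 11.4. Their log2 differences were 1.30, 0.62, 0.46 and 0.75. By contrast Cebpg had 769 ± 34.9 against 1047 ± 32.8 (-0.45). Higher values of the transporters were not particular to Mertk-/-V2. In Mertk-/-V1 BMDMs 6 of the 7 had a difference above 0 from B6 WT, with a median of 0.15. There 3 did not overlap above B6 WT and 1 below it, beside 15.4% of all genes in each direction, and limma called 0. In Mertk-/-V3, 4 of the 7 were above 0, and all overlapped B6 WT.

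Chac1 acts in the gamma-glutamyl cycle, which makes and breaks down glutathione. Of its other genes 8 were tested in BMDMs, and limma called 0 in Mertk-/-V1 against B6 WT, in Mertk-/-V3 against B6 WT and between those lines, with 1, 2 and 1 at an unadjusted p under 0.05; edgeR called 0 in each and DESeq2 called 0, 1 and 0. In Mertk-/-V2 the groups did not overlap for 3 of the 8, beside 22.7% of all genes in either direction. The 3 are named after their values were seen, as a description of the contrast that helped to choose the group. Oplah, which recycles oxoproline, had 49.1 ± 5.74 against 36.9 ± 3.90 in B6 WT (0.40). The paralogue Chac2 had 59.4 ± 7.90 against 77.2 ± 3.86 (-0.38) and glutathione synthetase (Gss) 327 ± 11.9 against 367 ± 5.67 (-0.17).

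The chaperone arm of the unfolded protein response, which is driven mainly by ATF6 and IRE1, had lower values. Of its 16 genes, 9 fell in Mertk-/-V1 against B6 WT and 0 rose, where 7.07% of all genes were called in either direction. The 3 largest changes were those of Creld2 (944 against 1287, log2 difference -0.45, adjusted p = 0.000162), Manf (-0.35, adjusted p = 0.00486) and Pdia6 (-0.32, adjusted p = 0.000364), and the master chaperone Hspa5 (BiP) changed by -0.23. Against Mertk-/-V3, 5 of the 16 were lower in Mertk-/-V1, beside 3.05% of all genes called. In Mertk-/-V3 against B6 WT 0 of 16 passed in limma, beside 1.17% of all genes. There 3 had an unadjusted p under 0.05, 0 were called by edgeR and 1 by DESeq2. In Mertk-/-V2, 12 of the 16 were below B6 WT without overlap, beside 12.7% of all genes. This is a description, since the contrast helped to choose the group. Of the 11 immediate early genes, 8 fell in Mertk-/-V1 against B6 WT BMDMs, Fosb by the most (-4.14), and 0 rose. In Mertk-/-V1 RPE all 11 had a difference above 0 from B6 WT (median 0.54), against 1 of the 16 chaperone arm genes (median -0.12). There limma called 0 of either list. The Mertk-/-V1 effect in RPE minus that in BMDMs was called higher for 4 of the 11 and 0 of the 16, beside 0.376% of all genes called. In BMDMs the summed level of the immediate early genes was 8897 to 9715 in Mertk-/-V1 and 10019 to 10701 in Mertk-/-V2. It was 16424 to 18231 in B6 WT and 15027 to 18960.1 in Mertk-/-V3. The part of that sum in the values of the members, Trib3 included, was not tested.

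In RPE every knockout line overlapped B6 WT for all 10 members. No member passed the test: limma called 0 of 10 in each of the lines V1, V2 and V3 against B6 WT, and 0 of 10 in Mertk-/-V1 against the mean of the other lines, where 0.388%, 0.069%, 0.069% and 0.207% of all 18832 genes were called. At an unadjusted p under 0.05 the counts were 2, 0, 0 and 2, and edgeR and DESeq2 also called 0 in each. With the replicate number as a block, 131 of the 18832 genes were called in Mertk-/-V1 against B6 WT in place of 73, and 0 of the members. Without the 3 libraries rich in rod markers, 687 were called in Mertk-/-V1 against the mean of the other lines in place of 39, and 1 of the members, Ddit4. The groups did not overlap for 0 of 10 members in the 4 comparisons, beside 1.09%, 5.66%, 4.32% and 0.483% of all genes. Weighting the libraries by their estimated quality gave 6 called members in Mertk-/-V3 against B6 WT, in a fit that called 12592 of the 18832 genes, and 3 in Mertk-/-V1 against the mean of the other lines. Of the 59 tested genes of the pathway lists limma called 0 in each of the 4 comparisons, with 10, 3, 8 and 17 at an unadjusted p under 0.05; edgeR called 0 in each and DESeq2 called 2, 0, 0 and 0.

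For Chac1 the mean was lower than in B6 WT in each line, without passing the test. It ran from 366 to 1125 (median 677) in B6 WT and 156 to 590.5 (median 394) in Mertk-/-V1, and was 373, 289 and 706 in Mertk-/-V2 and 462, 223 and 349 in Mertk-/-V3. The groups overlapped widely. The log2 differences were -0.85 (SE 0.37) in Mertk-/-V1 (adjusted p = 0.688), -0.53 (SE 0.45) in Mertk-/-V2 (adjusted p = 0.973) and -0.89 (SE 0.45) in Mertk-/-V3 (adjusted p = 0.456). Without the 3 libraries rich in rod markers they were -0.38 in Mertk-/-V1 and -1.13 in Mertk-/-V3, and the tests were again not passed (adjusted p = 0.859 and 0.3497). For Mertk-/-V1 the difference was -0.58 with only the libraries numbered 1 to 3 in both groups and -1.12 with only those numbered 4 to 6. Set against B6 WT replicates 1 to 3 or 4 to 6 alone, it was -0.92 or -0.14 in Mertk-/-V2 and -1.28 or -0.50 in Mertk-/-V3. With array quality weights Mertk-/-V3 passed the test (-1.58, adjusted p = 8.4e-06). It also passed with the replicate number as a block (-1.41, adjusted p = 0.00449), though the numbers are not shown to pair samples.

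Asns ran from 69.0 to 304 (median 134) in B6 WT and 111 to 839 (median 199) in Mertk-/-V1, and was 135, 139 and 144 in Mertk-/-V2 and 385, 149.6 and 77.1 in Mertk-/-V3. The 3 highest of the 18 libraries were the 3 in which rod markers exceeded RPE markers. The difference of 0.79 (SE 0.50) in Mertk-/-V1 (adjusted p = 0.811) was 0.09 without them. Against the mean of the other lines the Mertk-/-V1 difference was 0.69, which was not called, and 0.29 without them. Phgdh went the other way, from 5412 to 9533 (median 7341) in B6 WT and 2785 to 7736 (median 5993) in Mertk-/-V1, with 9199, 6766 and 6882 in Mertk-/-V2 and 3259.6, 5747 and 7971 in Mertk-/-V3, and the same 3 libraries were its lowest. Its difference was -0.50 in Mertk-/-V1 (adjusted p = 0.77), and -0.10 without them.

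**Figure D4:**
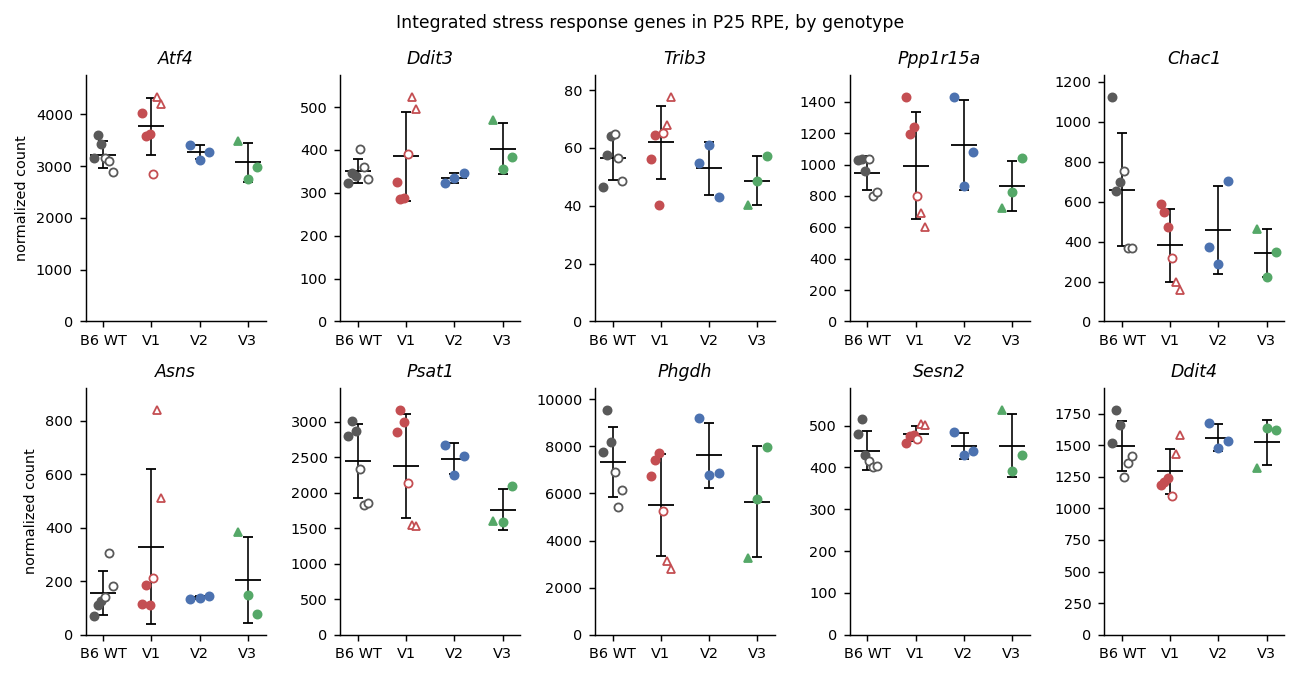
Normalized counts of the 10 genes in every RPE library (points), with the mean of each genotype as a horizontal line and its SD as whiskers, each axis starting at 0. Open points are the libraries numbered 4 to 6, and triangles are the 3 libraries with more rod than RPE marker signal, which are the highest for Asns and the lowest for Phgdh.

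Psat1, the next enzyme of serine synthesis, ran from 1826 to 3009 (median 2568) in B6 WT and 1534 to 3160.1 (median 2496) in Mertk-/-V1, with 2677, 2249.8 and 2514 in Mertk-/-V2 and 1597, 1589 and 2098 in Mertk-/-V3. Atf4 ran from 2887 to 3607 (median 3158) in B6 WT and 2842 to 4336 (median 3820.1) in Mertk-/-V1. The difference of 0.21 (SE 0.10) did not pass (adjusted p = 0.701), and it was 0.12 without the 3 libraries rich in rod markers. Against the mean of the other lines it was 0.20 to 0.32 on leaving out each library in turn, and it was not called. Trib3, the member called in BMDMs, was low in RPE: 46.6 to 64.8 (median 56.9) in B6 WT, 40.3 to 77.6 (median 64.8) in Mertk-/-V1, 54.8, 61.1 and 43.0 in Mertk-/-V2 and 40.2, 48.6 and 57.1 in Mertk-/-V3. Each knockout line overlapped B6 WT for these genes. Ddit4 differed between Mertk-/-V1 and the mean of the other lines by -0.26 (SE 0.10, adjusted p = 0.441), and by -0.43 without the 3 libraries rich in rod markers, where it passed (adjusted p = 0.0379). Ddit3, Ppp1r15a and Sesn2 had group means of 335 to 403, 863 to 1125 and 440.2 to 480.5.

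Several members moved in RPE with the marker content of the library. Over the 18 libraries the log2 level of Asns had a Pearson correlation of 0.88 with the log2 rod marker sum (0.94 after centring each genotype), and Ddit3 of 0.71 (0.76). Phgdh had 0.97 with the RPE marker sum (0.99), and with the rod sum -0.77; Psat1 had -0.79, Ppp1r15a -0.71 and Chac1 -0.71 with the rod sum. Trib3 (0.24), Sesn2 (0.10), Ddit4 (0.07) and Atf4 (0.28) had lower values with the rod sum. With the RPE sum these 4 had -0.26, -0.41, 0.28 and -0.51. Without the 3 libraries rich in rod markers (n = 15), Asns had 0.74, Psat1 -0.62, Chac1 -0.59, Sesn2 -0.53 and Ddit3 0.29 with the rod sum, and Phgdh 0.87 and Ddit4 0.81 with the RPE sum. With the erythroid sum, Psat1 had 0.83, Ppp1r15a 0.73 and Ddit3 -0.67 over the 18 libraries, and Atf4 0.24, but 0.79 without the 3. With the summed immediate early genes, Atf4 had 0.64, Sesn2 0.63, Psat1 0.55, Ppp1r15a 0.40 and Chac1 0.35. After centring each genotype the last 3 had 0.71, 0.57 and 0.74. These are descriptions over libraries that share a preparation method, with no test; fewer cells of a type and less RNA per cell cannot be told apart in bulk samples, and the part of rod, erythroid or immediate early transcripts in the differences between genotypes was not tested.

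**Figure D5:**
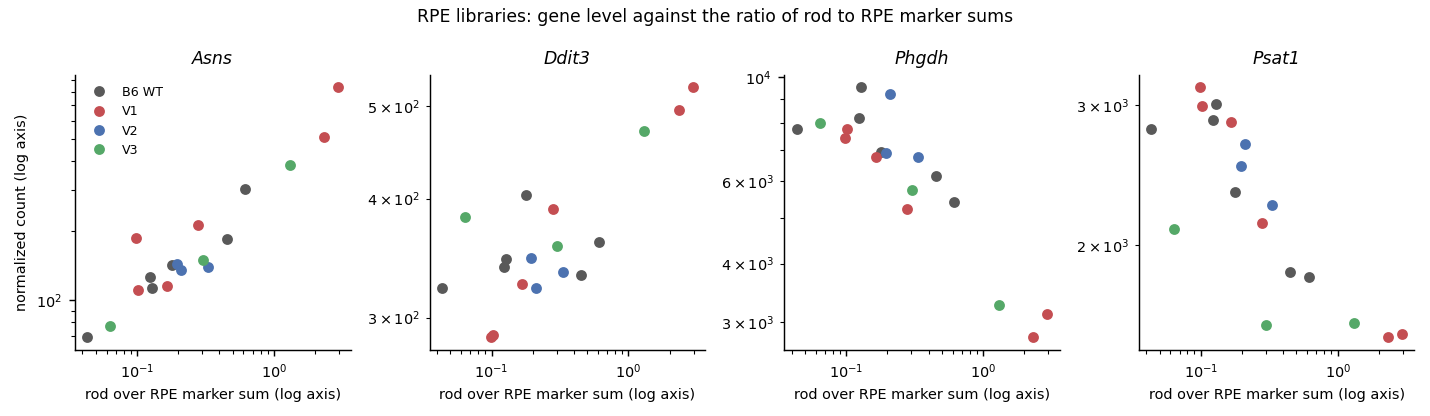
Normalized count of Asns, Ddit3, Phgdh and Psat1 in each of the 18 RPE libraries against the ratio of summed rod to summed RPE markers, both on log axes, coloured by genotype. Asns climbs and Phgdh declines along the ratio across all genotypes, and the 3 libraries to the right of a ratio of 1 are Mertk-/-V1 replicates 5 and 6 and Mertk-/-V3 replicate 1.

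RPE libraries of B6 WT and of Mertk-/-V1 numbered 1 to 3 differed from those numbered 4 to 6. In B6 WT, Phgdh had 8483 ± 933 in replicates 1 to 3 and 6167 ± 760.00 in replicates 4 to 6 (SD, n = 3 each) and Psat1 2894 ± 106 in replicates 1 to 3 and 2003 ± 287 in replicates 4 to 6. In Mertk-/-V1, Phgdh had 7307 ± 506 in replicates 1 to 3 and 3713 ± 1331 in replicates 4 to 6, Chac1 537 ± 60.3 in replicates 1 to 3 and 224 ± 82.8 in replicates 4 to 6 and Ppp1r15a 1289 ± 125 in replicates 1 to 3 and 698 ± 101 in replicates 4 to 6. Asns was 103 ± 29.9 in replicates 1 to 3 and 210.1 ± 84.0 in replicates 4 to 6 in B6 WT, and 137 ± 42.3 in replicates 1 to 3 and 521 ± 314 in replicates 4 to 6 in Mertk-/-V1. The sets did not overlap for 5 members in B6 WT and 7 in Mertk-/-V1, where 35.9% and 41.7% of all genes did not. The ratio of summed rod to RPE markers was 0.0435 to 0.128 in B6 WT replicates 1 to 3 and 0.179 to 0.613 in replicates 4 to 6. In Mertk-/-V1 it was 0.0988 to 0.166 and 0.280 to 2.95. Reads on genes were 23417838 to 30196674 and 14137666 to 18266704 in B6 WT. In Mertk-/-V1 they were 27958711 to 34124049 and 19791803 to 20779930. The part of rod content or depth in the split was not tested. The labels do not say what the numbers stand for, and Mertk-/-V2 and Mertk-/-V3 have replicates 1 to 3 only. When this split was modelled in Mertk-/-V1 against B6 WT, 0 members were called, and Chac1 had an adjusted p of 0.165.

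Whether the lines differed from B6 WT in the same way in both tissues was tested for Mertk-/-V1 and Mertk-/-V3. For Trib3 the effect in RPE minus that in BMDMs was -0.79 (SE 0.24) in Mertk-/-V1 (adjusted p = 0.216) and -1.07 (SE 0.26) in Mertk-/-V3 (adjusted p = 0.36). Neither passed, so a rise of Trib3 in BMDMs that differs from RPE was not shown. For Asns the difference of the Mertk-/-V1 effects was 0.70, and -0.0032 without the libraries rich in rod markers. Leaving out each library in turn gave 0.29 to 0.41 for Atf4 in Mertk-/-V1 and -0.84 to -0.19 for Phgdh in Mertk-/-V3. Of the 9 members tested 0 were called in each, beside 0.376% and 0.04% of the 12513 genes measured in both tissues; at an unadjusted p under 0.05 the counts were 2 and 1, and edgeR and DESeq2 called 0. For Chac1 the difference of effects was -1.51 and -1.43, given with no test because its BMDM values helped to choose the group.

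Within BMDMs the amino acid members varied together. Over the 12 libraries, Asns had a Pearson correlation of 0.87 with Psat1, 0.83 with Chac1, 0.79 with Phgdh and 0.72 with Atf4 (after centring each genotype 0.62, 0.83, 0.59 and 0.80). In RPE the signs were mixed: Asns had -0.89 with Phgdh, -0.71 with Psat1 and 0.76 with Ddit3 over 18 libraries. Of the 45 pairs of members, 30 were above 0 in BMDMs and 23 in RPE, with medians of 0.20 and 0.00068. These are descriptions over libraries that share genotype, depth and, in RPE, rod content, with no test. The 12 BMDM libraries include those of the contrast on Chac1 that helped to choose the group, so nothing is read from their values.

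Chac1 lies on chromosome 2 (chr2:119351229-119354381, GRCm38, plus strand), on the same chromosome as Mertk (chr2:128698956-128802894) and between Thbs1 and Plcb1, within the stretch that is of 129P2 origin in Mertk-/-V1. Trib3 (chr2:152337422-152344032, minus strand) lies further along the chromosome than Plcb1. The study bounds the stretch by markers in genetic distance, so whether it reaches Trib3 was not determined here. Of the genes that start within 500 kb of Chac1, 24 were tested in BMDMs and 31 in RPE. In Mertk-/-V1 against B6 WT, 5 rose and 2 fell in BMDMs, where 7.07% of all genes were called. In RPE 3 rose and 2 fell, where 0.388% of all genes were called. Among them were Gchfr (log2 difference 3.07 and 1.81), Exd1 (1.68 and 1.46) and Ivd (-0.52 and -0.90) in both tissues. In Mertk-/-V3 against B6 WT limma called 0 of them in BMDMs (5 at an unadjusted p under 0.05, edgeR 0, DESeq2 1) and 0 in RPE (3 at an unadjusted p under 0.05, edgeR 0, DESeq2 0), and in Mertk-/-V2 RPE 0 (1 at an unadjusted p under 0.05, edgeR 0, DESeq2 0). Chac1 itself differed between Mertk-/-V1 and Mertk-/-V3 BMDMs by 0.11 (SE 0.31, adjusted p = 0.888). Strain alleles and the loss of Mertk cannot be told apart for Chac1 in Mertk-/-V1.

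The genes whose level was most like that of Chac1 over the libraries of a tissue, by Pearson correlation of log2(normalized count + 1), were Chp1 (0.97), Efna4 (0.92), Tgm5 (0.92), Tmem102 (0.91) and Gm14137 (0.90) in 18 RPE libraries. Chp1, Tgm5 and Gm14137 are on chromosome 2, and the start of Chp1 lies within 500 kb of Chac1. In 12 BMDM libraries they were Trim26 (0.91), AA986860 (0.86), Zfp598 (0.85), Ciart (0.84) and Ahrr (0.84), of which none is on chromosome 2. No member of the group was among them in either tissue, but in BMDMs Asns, with 0.83, lay close to the 0.84 of Ahrr.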

How the data were processed

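RNA-seq libraries (polyadenylated RNA) of RPE and BMDMs from 4 genotypes were analysed from 1 table per tissue. The authors aligned reads to the mouse genome (GRCm38) with STAR after trimming with btrim and scaled the counts with DESeq2; the read counter and the annotation are not given in the sources used here. The deposited values are a per-gene signal, read counts divided by the size factor of a library, from which whole reads were recovered for 100% of values (tolerance 0.001).

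Each tissue was fitted in limma 3.58.1 (R 4.3.3) on log2(normalized count + 1), with all genotypes in 1 model, a mean-variance trend and genes with a mean of at least 10 (18832 in RPE, 13420 in BMDMs, 12513 in both), and Benjamini-Hochberg adjustment over all of them. A fold change on this scale understates the change of low genes. A gene was called at an adjusted p under 0.05. The tissue difference was tested in 1 model over both tables, which were normalized separately. RPKM used recovered reads and the exon length of GENCODE M21. The tests were checked on simulated data. edgeR 4.0.16 and DESeq2 1.42.0 on the recovered reads, another pseudocount, no filter, quantile normalization, array quality weights, a replicate block, the compared groups alone and each library left out were alternatives; leaving out the RPE libraries rich in rod markers was chosen after seeing the data. The labels do not say that replicate numbers pair samples. In RPE all 6 same-numbered pairs of B6 WT and Mertk-/-V1 deviated together (correlation of their deviations from the group means 0.12 to 0.72). Between every other 2 groups at least 1 pair was at or under 0.1. Differently numbered libraries within replicates 1 to 3 or 4 to 6 could do the same or the reverse. B6 WT 1 with Mertk-/-V1 3 had 0.67, B6 WT 5 with Mertk-/-V1 6 had 0.74, and B6 WT 5 with Mertk-/-V1 4 had -0.18. The correlations therefore do not show that the numbers pair samples, and the replicate block is given only as an alternative. Intervals from counting were not needed, since all tests rest on the spread between libraries.

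The members and all lists were chosen with earlier results of these data known. All 10 members were named, and genes of further lists were named when called, or otherwise after their values were seen. Differences of tested members are printed at an unadjusted p under 0.05 or a log2 size of at least 0.5. For Atf4 and Phgdh some are printed as the range over left-out libraries. The Chac1 contrasts of BMDMs with B6 WT, and all members in Mertk-/-V2 against B6 WT BMDMs, were not tested.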

Additional observations from a re-analysis of the deposited data

How the results depend on the processing

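The numbers of called members were within 1.5 times under 157 alternatives and moved under 23. With array quality weights they were 6 in Mertk-/-V3 against B6 WT RPE, 3 in Mertk-/-V1 against the mean of the other lines in RPE, 3 in Mertk-/-V3 against B6 WT BMDMs, 3 between Mertk-/-V1 and Mertk-/-V3 BMDMs, and 1 (Trib3) and 6 in the tissue differences of Mertk-/-V1 and Mertk-/-V3; the cause was not tested. In Mertk-/-V1 against B6 WT RPE the replicate block changed no call of a member. Over all groups the correlation of the deviations of same-numbered libraries was over 0.1 for 13 of 21 pairs in RPE and 4 of 18 in BMDMs. Elsewhere, with a replicate block, 3 members were called in Mertk-/-V3 against B6 WT RPE, among them Chac1 (-1.41, adjusted p = 0.00449), and 1 in Mertk-/-V1 against the mean of the other lines in RPE; the block changed no other count of members by over 1.5 times. Over all RPE genes, against B6 WT, the block gave 706 calls for Mertk-/-V2 and 5619 for Mertk-/-V3 in place of 13 each, and 2329 in Mertk-/-V1 against the mean of the other lines in place of 39; the cause was not tested. Without the 3 RPE libraries rich in rod markers, 1 member, Ddit4, was called in Mertk-/-V1 RPE against the mean of V2 and V3. With the log2 fold threshold, 0 were called in each BMDM comparison. Between Mertk-/-V1 and Mertk-/-V3 BMDMs, 0 were called with no filter, 2 by DESeq2 and 2 with only those groups fitted. Leaving out each library in turn gave 1 to 1 called members in Mertk-/-V1 and 0 to 1 in Mertk-/-V3 against B6 WT BMDMs, 0 to 1 between them, and 0 to 0 in each RPE comparison and tissue difference. Of the members' differences, 381 kept direction and side of the threshold, 14 passed it, 9 lost it and 2 reversed, both for Asns: Mertk-/-V1 against the mean of the other lines was -0.18 with only replicates 1 to 3 of Mertk-/-V1, and the tissue difference of the Mertk-/-V1 effect was -0.0032 without the libraries rich in rod markers. Calls of further genes were kept in 920 and lost in 144. Without the 10 most abundant genes in the denominator, 7 of 20 wild type levels moved by more than 1 SD.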
